A study of Mus musculus with 19 samples.

Results

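The transcripts of 10 apolipoprotein genes, Apoa1, Apoa2, Apoa4, Apoa5, Apob, Apoc1, Apoc2, Apoc3, Apoe and Apoh, were examined in mouse liver. The members were taken by symbol from a table of 31053 genes, and all 10 were found in it and passed the filter on low counts in every comparison. The 19 liver libraries came from male C57BL/6 mice, 6 to 8 weeks old at the start, in 3 groups. The PBS group (n = 5) was labelled with vehicle only, and whether it received a vector is not stated in its labels. The TAA_GFP group (n = 7) received increasing doses of thioacetamide (TAA), a hepatotoxin used to induce liver fibrosis, for 12 weeks and an AAV8 vector with eGFP after 10 weeks. The TAA_miR group (n = 7) received the same TAA and, in place of eGFP, AAV8 vectors for miR-34b and miR-34c. The TBG promoter of these vectors restricts expression to hepatocytes, and livers were collected 4 weeks after the injection. If PBS mice had no vector, TAA_GFP against PBS combines TAA with the vector, and their parts cannot be told apart, whereas TAA_miR against TAA_GFP compares the microRNAs with eGFP under TAA.

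Apolipoproteins coat the lipid particles of plasma. Hepatocytes build very low density lipoprotein around apolipoprotein B, and the smaller exchangeable apolipoproteins, which move between particles, decide how fast lipases empty them and which receptors take them up. High density lipoprotein is organised by apolipoproteins A-I and A-II. The liver is the main source of most members, apolipoprotein A-IV is also made in quantity by the intestine, and apolipoprotein E is also made by macrophages.

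Libraries held 2214073 to 5208405 counts, and the members together took 5.15% to 8.14% of them (median 6.74%). Reads come from the 3′ end of each transcript, so counts were not divided by transcript length. Levels are given as CPM, the count scaled to the library total with TMM factors. Hepatocyte markers (16 genes, none at 0) summed to 80938 to 99981 CPM in PBS, 82598 to 96505 in TAA_GFP and 76405 to 123130 in TAA_miR. In bulk tissue, fewer cells of a type and less RNA per cell cannot be told apart. Libraries of one group were not uniform. Mitochondrial genes took 3.73% to 5.65% of counts in PBS, but 4.83% to 5.50% in TAA_GFP 5, 6 and 7 against 7.85% to 9.41% in TAA_GFP 1 to 4, and 3.71% to 3.73% in TAA_miR 1 and 2 against 8.21% to 10.8% in TAA_miR 3 to 7. TAA_miR 1 and 2 also stood apart in neutrophil markers (8 genes), which summed to 1948 and 1955 CPM there, to 65.0 to 435 CPM in the other TAA_miR libraries and to at most 82.5 CPM elsewhere. Within groups, 6 pairs of libraries were closer to each other (biological coefficient of variation 0.0812 to 0.171) than the other 46 (0.215 to 0.480). They were counted as separate samples, as labelled, and an alternative fit summed the close libraries. Results for Apoa4, Apoa5 and Apoe against PBS are also given with such libraries joined or left out.

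Apoa1, Apoc3, Apoa4 and Apoa5 lie side by side on chromosome 9 (GRCm38), Apoa1 at chr9:46228580-46230466 on the plus strand, Apoc3 at chr9:46232933-46235636 on the minus strand, Apoa4 at chr9:46240696-46243459 and Apoa5 at chr9:46268633-46271919 on the plus strand. Apoe (chr7:19696109-19699188), Apoc1 (chr7:19689481-19692660) and Apoc2 (chr7:19671579-19677941) form a cluster on the minus strand of chromosome 7. Apoa2 (chr1:171225054-171226379), Apob (chr12:7977648-8016835) and Apoh (chr11:108343354-108414396) lie on other chromosomes. Gm44805, annotated over the last exons of Apoc2 on the same strand, could take Apoc2 reads or make them ambiguous, and it held 1 count in all libraries, so the Apoc2 level is uncertain. The antisense genes Gm10680 over Apoa4 and Gm47544 within Apoa5 held 0 and 9 counts in all. Prkca, on the minus strand, overlaps the start of Apoh and held 383 counts in all, with some in each of the 19 libraries.

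Because the vectors deliver miR-34b and miR-34c, RefSeq mature sequences of this family are shown with the seed, bases 2 to 8, in capitals. The other 5p arm, miR-34c-5p, is named only. The 5p arm of miR-34b shares its seed with miR-34a-5p, a family member that the vectors do not carry, and the 3p arms of miR-34b and miR-34c share another one.
mmu-miR-34b-5p: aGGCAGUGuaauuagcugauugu
mmu-miR-34a-5p: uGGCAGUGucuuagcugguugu
mmu-miR-34b-3p: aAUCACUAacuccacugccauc
mmu-miR-34c-3p: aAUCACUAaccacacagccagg
The complement of the first seed, CACTGCC, was absent from the 3′ UTRs of all 10 members when the annotated transcript with the longest coding sequence was read (GENCODE vM21), against 12.9% of 21020 genes that held it. Those member 3′ UTRs ran from 64 bases in Apoa1 to 290 in Apoc3, apart from 1185 in Apoa5. The shares of genes were not matched for UTR length, and short UTRs hold fewer matches, so no depletion can be read from them. With the longest annotated 3′ UTR of each gene, 14.3% of genes held it, and among the members 1 match appeared, in Apob. It lay in a 2174-base transcript model of 5 exons and not in the 13934-base Apob transcript of 29 exons, and it is shown with the match in capitals.
Apob, short transcript model: aaaagctgggtCACTGCCgtggccaaaat
The complement of the second seed, TAGTGAT, was in no member under either choice, against 6.95% and 7.63% of genes. A match of letters is a description of the annotation, and the absence of one says only that these letters are not in these windows.

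The promoters of Apoa4 and Apoa5, the members whose log2 fold changes against PBS were largest in either direction, are shown from RefSeq (GRCm38.p6), with motif matches in capitals. These patterns were searched on both strands, which were chosen after the windows had been seen: the TATA box TATAAA (in 13.6% of 32851 listed windows of 300 bases), the nuclear receptor half-site AGGTCA (16.3%), the HNF4-like CAAAGNNCA (6.36%) and the E-box CACGTG (7.15%). Apoa4 held 1 CAAAGNNCA and none of the others, Apoa5 held 1 TATAAA and 1 CACGTG, and Apoa1 held none. The Apoa4 window is placed on a RefSeq start 148 bases inside the GENCODE gene.
Apoa4, chr9:46240594-46240893, plus strand: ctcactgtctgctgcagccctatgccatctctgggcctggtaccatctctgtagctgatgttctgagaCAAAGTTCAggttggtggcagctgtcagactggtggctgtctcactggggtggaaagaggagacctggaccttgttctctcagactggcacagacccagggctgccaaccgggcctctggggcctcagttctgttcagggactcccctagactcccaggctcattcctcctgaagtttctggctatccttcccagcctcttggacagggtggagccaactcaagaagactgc
Apoa5, chr9:46268383-46268682, plus strand: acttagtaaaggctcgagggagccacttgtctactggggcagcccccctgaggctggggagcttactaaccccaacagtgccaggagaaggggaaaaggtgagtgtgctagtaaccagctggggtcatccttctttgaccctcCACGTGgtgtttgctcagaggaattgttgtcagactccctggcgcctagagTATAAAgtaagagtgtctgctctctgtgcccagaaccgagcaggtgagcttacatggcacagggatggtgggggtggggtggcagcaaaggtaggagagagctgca

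The members covered a wide range of levels. Apoe, the receptor ligand for remnant particles, ranked 3 of 31053 genes by mean over the 19 libraries (29518 CPM), and Apoa1, the main protein of high density lipoprotein, ranked 7 (15168 CPM). They were followed by Apoa2, the second protein of that particle (7469 CPM), Apoc1, which hinders receptor uptake (5468 CPM), and Apoc3, which slows lipolysis and clearance (4994 CPM). Apoh, a phospholipid-binding plasma protein (1057 CPM), Apob, the structural protein of very low density lipoprotein (920 CPM), and Apoa5, which promotes lipolysis of triglyceride (799 CPM), came next. Apoa4, carried on triglyceride-rich and high density particles, averaged 384 CPM, and Apoc2, the cofactor of lipoprotein lipase, was lowest (29.7 CPM). Some neighbours in this order were not separated: Apoc1 was above Apoc3 in 15 of 19 libraries, Apoh above Apob in 13, Apob above Apoa5 in 11 and Apoa5 above Apoa4 in 18. For the other neighbouring pairs the order held in all 19 libraries.

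**Figure D1:**
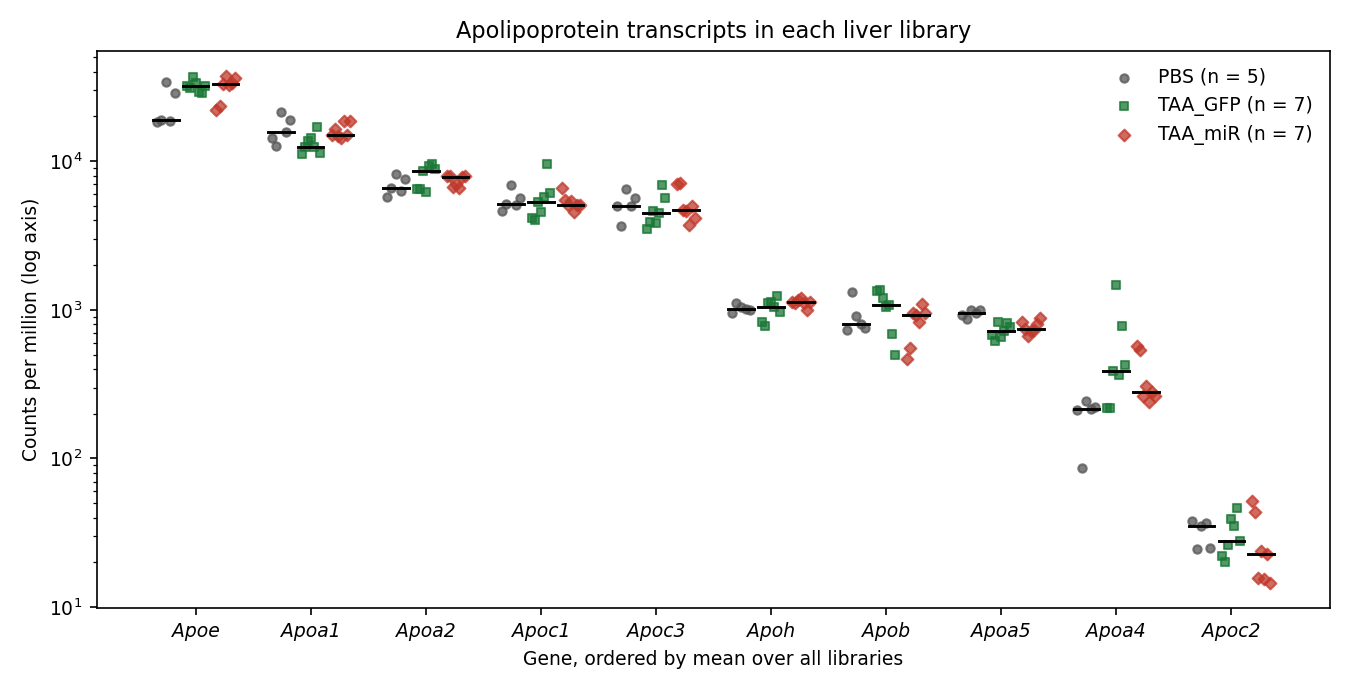
Level of each member in every library, in CPM on a log axis, with PBS as circles, TAA_GFP as squares and TAA_miR as diamonds and the group median as a bar. Apoa4 reached 1475 CPM in TAA_GFP 4, above all 5 PBS libraries, which lay between 86.6 and 243 CPM.

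TAA-treated livers with eGFP were compared with vehicle livers to see which apolipoprotein transcripts differ in the injured liver. Apoa4 was the 1 member of 10 that passed the edgeR test, and it was higher in TAA_GFP. Over all genes tested, 12.7% were called, 7.54% higher and 5.19% lower, so 1 member in 10 is near that background. The median log2 fold change was 0.01 over the members and -0.01 over all 9522 genes tested.

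Apoa4 stood at 210, 86.6, 243, 215 and 221 CPM in PBS 1 to 5, and in TAA_GFP at 218 (lowest), 386 (median) and 1475 (highest). The groups overlapped: 5 of 7 TAA_GFP libraries lay above every PBS library, and TAA_GFP 1 and 2, at 218 and 219 CPM, lay among them. Means were 195 ± 61.9 (SD, n = 5) and 552 ± 447 (SD, n = 7) CPM. The log2 fold change was 1.51 (SE 0.41, 95% interval 0.66 to 2.35, edgeR quasi-likelihood adjusted p = 0.0194). In the exact two-sided permutation test of log2 CPM, p was 0.0316 and 0.135 after adjustment over the 30 member comparisons. Without TAA_GFP 4, the highest library, the log2 fold change was 1.03 with an edgeR adjusted p of 0.0375. The call was made in all 12 fits that left out 1 library (edgeR adjusted p 0.0135 to 0.0478), and it was lost when close libraries were summed (1.78, adjusted p = 0.0749) and with mitochondrial share as a covariate (2.11, adjusted p = 0.0861).

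Relative to Apoa1, its neighbour on chromosome 9, Apoa4 separated TAA_GFP from PBS, and TAA_miR overlapped both. This ratio, which no scaling factor changes, was computed after the data had been seen. Apoa4 counts were 0.685% to 1.48% of Apoa1 counts in PBS and 1.76% to 10.3% in TAA_GFP, with no overlap (exact two-sided permutation p = 0.00253, 0.0227 after adjustment over 9 ratio tests). With close libraries averaged (6 against 3 samples), the exact permutation p was 0.0119, the smallest that design allows, and 0.107 after adjustment. In TAA_miR the ratio was 1.29% to 3.80%, with an exact permutation p of 0.0164 against PBS (0.0739 adjusted) and 0.0921 against TAA_GFP (0.166 adjusted). Apoa1 itself, the denominator, was below every PBS library in 4 of 7 TAA_GFP libraries (log2 fold change -0.32, 95% interval -0.72 to 0.07, edgeR adjusted p = 0.261). In TAA_GFP against PBS the exact permutation p was 0.558 for Apoa5 to Apoa1 and 0.277 for Apoc3 to Apoa1.

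Intestinal markers (9 genes) were read beside Apoa4, since the intestine also makes it. Summed levels were 28.7 to 54.9 CPM in PBS, 34.1 to 96.5 in TAA_GFP and 11.5 to 38.2 in TAA_miR, and TAA_GFP 4 had 61.2 CPM. Most of each sum was Fabp2, the intestinal fatty acid binding protein, with means of 41.9 ± 9.20 (SD, n = 5), 56.0 ± 25.3 (SD, n = 7) and 22.2 ± 9.67 CPM (SD, n = 7). Fabp2 fell in TAA_miR against TAA_GFP (log2 fold change -1.34, edgeR adjusted p = 0.0165) and against PBS (-0.91, adjusted p = 0.0261), and had 0.42 (adjusted p = 0.302) in TAA_GFP against PBS. Of the 9 genes, Alpi, Cdx1, Cdx2, Lct, Muc2 and Sis were at 0 in every library.

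**Figure D2:**
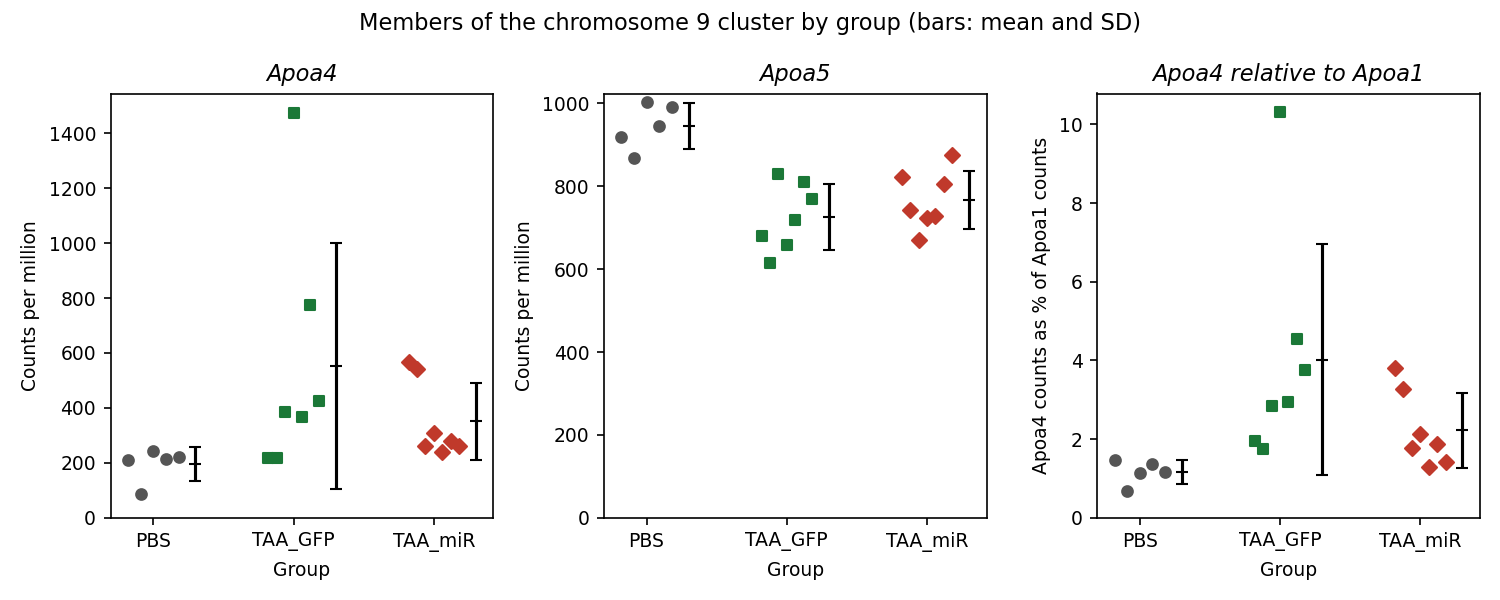
Apoa4 and Apoa5 in CPM and Apoa4 counts as a percentage of Apoa1 counts in each library, with group mean and SD beside the points. TAA_GFP 4 is the highest Apoa4 library at 1475 CPM, and every TAA_GFP library lies below every PBS library for Apoa5. The number of all genes that separate in this way was not counted.

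Apoa5 did not pass the test, although it was lower in every TAA_GFP library than in every PBS library. How many of all genes separate in this way was not counted, so the separation is not shown to be particular to Apoa5. In this comparison 2828 of 9522 genes had an unadjusted edgeR p under 0.05. PBS libraries stood at 920, 869, 1005, 945 and 991 CPM, and TAA_GFP libraries at 615 (lowest), 719 (median) and 829 (highest). The log2 fold change was -0.38 (SE 0.14, 95% interval -0.68 to -0.08) with an edgeR adjusted p of 0.0868. The exact permutation p was 0.00253, and 0.0505 after adjustment over the 30 comparisons. With close libraries averaged (6 against 3 samples) it was 0.0238, and 0.268 after adjustment. DESeq2 (adjusted p = 0.0172) and limma-voom (adjusted p = 0.0181) called it. These methods also called more of the 9522 genes, 1564 and 2687 against 1212 by edgeR.

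Apoe was not called either. PBS 1, 2 and 4 had 18418, 19025 and 18628 CPM, whereas PBS 3 and 5 had 33818 and 28613 CPM. TAA_GFP libraries stood at 28925 (lowest), 31830 (median) and 37061 (highest) CPM, so PBS 3 lay within their range and PBS 5 just below it. The log2 fold change was 0.43 (SE 0.21, edgeR adjusted p = 0.162), and the exact permutation p was 0.0189, 0.114 after adjustment. PBS 3 and 5 are a close pair, as are PBS 1 and 4, and with close libraries averaged the exact permutation p was 0.0357, 0.268 after adjustment. Macrophage markers (18 genes, none at 0), which mark another source of Apoe, summed to 628 to 1129 CPM in PBS and 562 to 913 CPM in TAA_GFP, and their part in the Apoe level was not tested.

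The other members had intervals that included 0. Apoa2 had a log2 fold change of 0.21 (95% interval -0.17 to 0.60), Apob 0.19 (-0.29 to 0.68), Apoc1 0.04 (-0.41 to 0.49), Apoc2 -0.04 (-0.49 to 0.41), Apoc3 -0.13 (-0.55 to 0.29) and Apoh -0.02 (-0.35 to 0.31). With mitochondrial share as a covariate, Apob, Apoc2, Apoc3 and Apoh changed sign, as given below.

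**Figure D3:**
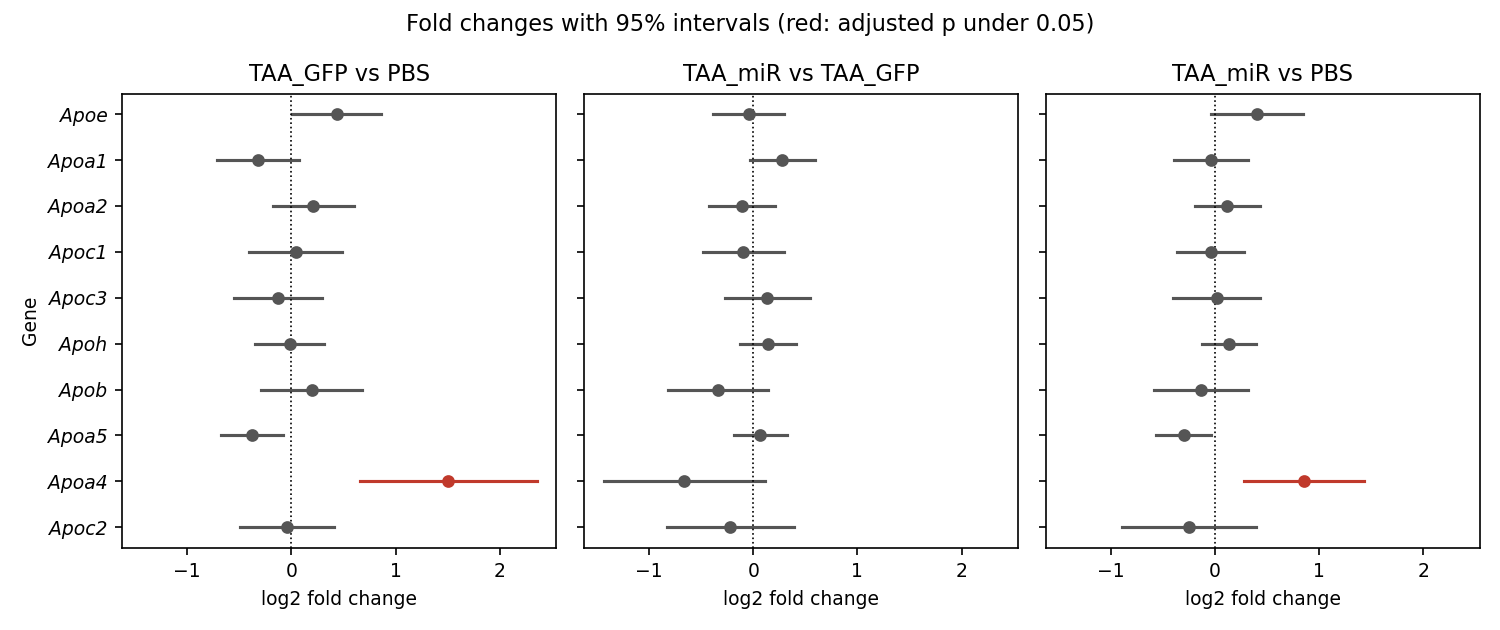
Log2 fold changes (points) and 95% intervals (lines) of the members in the 3 comparisons from edgeR, with members past an adjusted p of 0.05 in red. Apoa4 is called in both comparisons with PBS, at 1.51 and 0.86, and no member is called between TAA_miR and TAA_GFP.

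TAA_miR livers were also set against the vehicle livers, which both TAA groups share as controls. Apoa4 was again the 1 member called by edgeR, higher in TAA_miR, beside a background of 21.9% of genes called, 12.2% higher and 9.75% lower. DESeq2 and limma-voom each called more members than edgeR, as given below, and also more of the 9290 genes, 2433 and 3839 against 2037. The median log2 fold change was -0.01 over the members and 0.02 over the 9290 genes tested. TAA_miR libraries stood at 240 (lowest), 281 (median) and 568 (highest) CPM, and 6 of 7 lay above every PBS library. The log2 fold change was 0.86 (SE 0.27, 95% interval 0.28 to 1.43, edgeR adjusted p = 0.0346), and the exact permutation p was 0.00505, 0.0505 after adjustment. With close libraries averaged (4 against 3 samples) it was 0.0286, the smallest that design allows, and 0.268 after adjustment. The highest levels, 568 and 540 CPM, were in TAA_miR 1 and 2. Without these, the log2 fold change was 0.47 and the edgeR adjusted p 0.0731. The call was also lost without PBS 1, 2, 4 or 5 (adjusted p 0.0644, 0.0699, 0.0646 and 0.0565), in the fit of all 3 groups (0.120) and with close libraries summed (0.144). A replicate block ended it as well, although the replicate numbers did not pair the samples, as given below.

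Apoa5 lay between 671 and 875 CPM in TAA_miR (median 742), below every PBS library in 6 of 7, with a log2 fold change of -0.30 (95% interval -0.56 to -0.04, edgeR adjusted p = 0.0919). Its exact permutation p was 0.00505, 0.0505 after adjustment, and 0.0286 and 0.268 with close libraries averaged. Apoe lay at 22205 and 23611 CPM in TAA_miR 1 and 2 and at 32653 to 37351 CPM in the other libraries. Its log2 fold change was 0.40 (edgeR adjusted p = 0.172) with them and 0.54 (adjusted p = 0.0378) without. Apoc2 likewise had 51.9 and 43.3 CPM in TAA_miR 1 and 2 and 14.6 to 24.0 CPM in the others, against 24.7 to 38.0 CPM in PBS. Its log2 fold change was -0.25 (adjusted p = 0.582) with them and -0.78 (adjusted p = 0.00544) without. With mitochondrial share as a covariate, the log2 fold change of Apoc2 turned positive, as given below.

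The remaining intervals included 0: Apoa1 -0.03 (95% interval -0.39 to 0.32), Apoa2 0.12 (-0.20 to 0.43), Apob -0.13 (-0.58 to 0.31), Apoc1 -0.04 (-0.36 to 0.28), Apoc3 0.02 (-0.40 to 0.43) and Apoh 0.13 (-0.12 to 0.39). With mitochondrial share as a covariate, Apob was called lower in this comparison, as given below.

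The question of what miR-34b/c adds was addressed by TAA_miR against TAA_GFP. No member was called, 0 of 10, beside 3.36% of all genes called, 1.95% higher and 1.42% lower. At an unadjusted edgeR p under 0.05 there were 0 members, beside 1414 of the 9252 genes tested. DESeq2 and limma-voom also called 0 members, with 1 and 2 under an unadjusted 0.05, a count not made over all genes for these methods. The median log2 fold change was -0.07 over the members and -0.01 over the 9252 genes tested. Apoa4 had the largest difference, -0.66 (95% interval -1.44 to 0.12, edgeR adjusted p = 0.426; exact permutation p = 0.359, 0.633 after adjustment), and the ranges overlapped, 218 to 1475 CPM against 240 to 568 CPM. The interval allows anything from a fold of 0.370 to one of 1.08. Apoa1 had the smallest exact permutation p of the comparison, 0.0140, and 0.105 after adjustment over the 30 comparisons. It was 11199 to 17015 CPM in TAA_GFP and 14403 to 18693 CPM in TAA_miR, with 2 of 7 TAA_miR libraries above every TAA_GFP library and a log2 fold change of 0.28 (95% interval -0.03 to 0.59, edgeR adjusted p = 0.398). Apoa5 had 0.07 (-0.19 to 0.32).

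Apob was -0.34 (95% interval -0.81 to 0.14), Apoc2 -0.22 (-0.83 to 0.39), Apoa2 -0.11 (-0.42 to 0.21), Apoc1 -0.09 (-0.48 to 0.29), Apoc3 0.13 (-0.27 to 0.54), Apoe -0.04 (-0.38 to 0.29) and Apoh 0.14 (-0.13 to 0.41). Leaving out TAA_miR 1 and 2 gave 1 called member, Apoc2 (-0.76, edgeR adjusted p = 0.0486), and for Apoa4 -1.05 (adjusted p = 0.0977).

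Levels of several members differed with the mitochondrial share of a library, a split made after the data had been seen and given here as a description. Among the 14 TAA libraries, 5 had a share below 6% and 9 above it. Apob was 466 to 1075 CPM (median 557) in the 5 and 828 to 1357 CPM (median 1053) in the 9. Apoc3 went the other way, 4452 to 7144 CPM (median 6922) against 3472 to 4967 CPM (median 4153), as did Apoc2, 27.8 to 51.9 CPM against 14.6 to 38.9 CPM. Apoc1 did not overlap, 5481 to 9537 CPM against 4013 to 5366 CPM, and Apoe was 22205 to 31967 CPM against 31005 to 37351 CPM. How many of all genes separate at this split was not counted, so none of these differences is shown to be particular to the members. All PBS libraries were below 6%. Among the 5 TAA libraries below it, TAA_GFP 5, 6 and 7 had 367 to 775 CPM of Apoa4 and TAA_miR 1 and 2 had 540 and 568 CPM, all above every PBS library. Apoa5 in these 5 was 719 to 822 CPM, below every PBS library. Above 6%, Apoa4 was 218 to 1475 CPM in 4 TAA_GFP and 240 to 309 CPM in 5 TAA_miR libraries, with no separation, and Apob was 1053 to 1357 CPM and 828 to 1088 CPM. The part of the mitochondrial share in these levels was not tested.

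**Figure D4:**
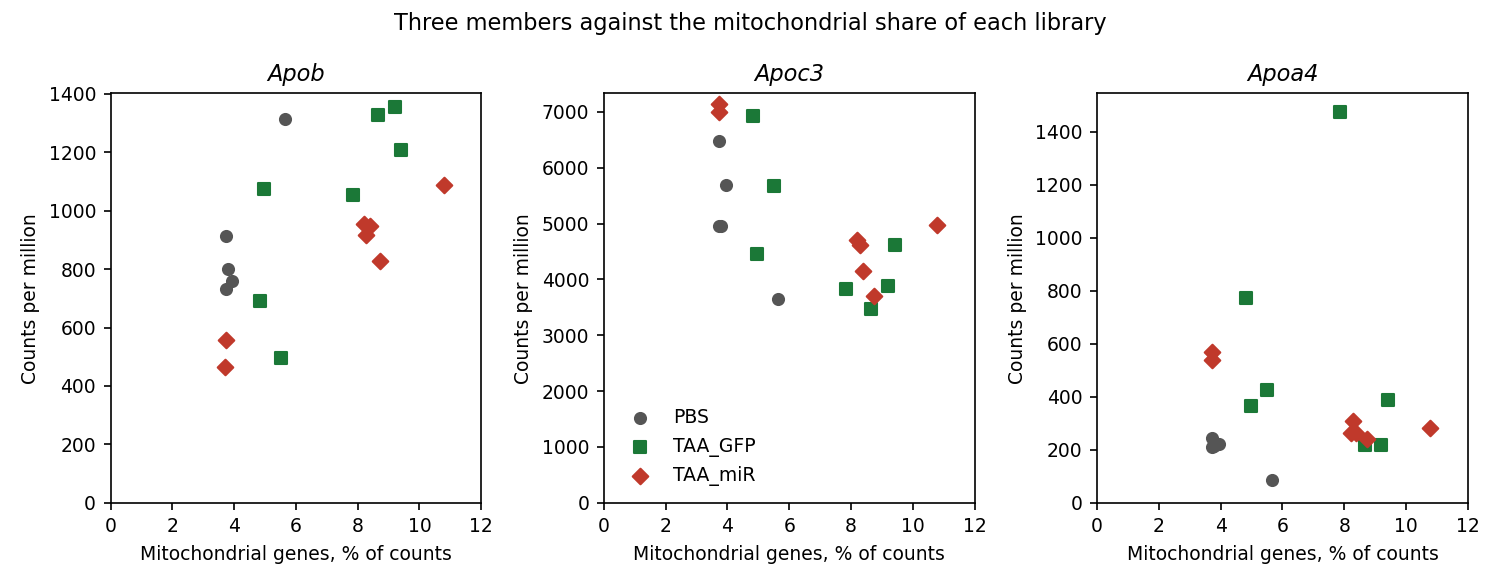
Apob, Apoc3 and Apoa4 in CPM against the share of counts from mitochondrial genes, one point per library. TAA libraries fall into 5 with 3.71% to 5.50% and 9 with 7.85% to 10.8%, and the 4 libraries lowest in Apob are among the 5.

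Genes that act with the members were counted from fixed lists. Of 9 genes tested from a list of other apolipoproteins, which includes Clu (apolipoprotein J), 0 rose and 2 fell in TAA_GFP against PBS, 2 rose and 2 fell in TAA_miR against PBS, and 1 rose in TAA_miR against TAA_GFP. Apom, which carries sphingosine 1-phosphate on high density lipoprotein, fell from 514 ± 83.1 (SD, n = 5) to 301 ± 90.3 CPM (SD, n = 7) in TAA_GFP (log2 fold change -0.77, edgeR adjusted p = 0.0165). Apon rose in TAA_miR over TAA_GFP (0.77, adjusted p = 0.00477) and over PBS (0.75, adjusted p = 0.00249), and Clu, the extracellular chaperone clusterin, rose over PBS (0.94, adjusted p = 0.00104). Apool, a mitochondrial protein despite its name, fell in both TAA groups against PBS (-0.67, adjusted p = 0.0269, and -1.05, adjusted p = 0.00365). Of 24 acute phase genes, 21 rose in TAA_miR over TAA_GFP and 16 over PBS, and 5 fell in TAA_GFP against PBS. Over all genes tested, 3.36%, 21.9% and 12.7% were called in these comparisons. The TAA_miR libraries were not alike in the summed level of these 24 genes. It was 220654 and 222429 CPM in TAA_miR 1 and 2, and 112346 to 144800 CPM in TAA_miR 3, 4 and 6. TAA_miR 5 and 7, at 64954 and 63737 CPM, lay below PBS 1 and 4 (82285 and 81104 CPM) and TAA_GFP 5 (66679 CPM).

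For assembly and secretion, 1 of 16 genes rose and 0 fell in TAA_GFP against PBS. In TAA_miR against PBS, 4 rose and 3 fell. Between the TAA groups edgeR called 0 of 16, with 0 at an unadjusted p under 0.05, beside 1414 of 9252 genes. The shares called over all genes were 12.7%, 21.9% and 3.36% in these comparisons. Cideb, a lipid droplet protein that lipidates very low density lipoprotein, rose in both TAA groups over PBS (0.80, edgeR adjusted p = 0.00576, and 0.76, adjusted p = 0.00181). Tm6sf2, which also loads lipid onto these particles, rose in TAA_miR (1.08, adjusted p = 0.00153), and Sar1b, needed for their exit from the endoplasmic reticulum, fell (-0.98, adjusted p = 0.0229).

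Among 13 receptor and uptake genes, 2 rose in TAA_GFP and 6 in TAA_miR against PBS, and no fall was called by edgeR. In TAA_miR against TAA_GFP, 2 rose and no fall was called. The shares of all genes called higher were 7.54%, 12.2% and 1.95% in these comparisons. The fatty acid transporter Cd36 rose over PBS in TAA_GFP (1.60, edgeR adjusted p = 1.73e-05) and in TAA_miR (0.94, adjusted p = 0.0265). Ndst1, an enzyme of heparan sulfate synthesis, rose over PBS in TAA_GFP (1.73, adjusted p = 0.00292) and in TAA_miR (1.57, adjusted p = 0.00308). Lsr, a lipolysis-stimulated receptor, rose in TAA_miR over PBS (1.18, adjusted p = 0.000255) and over TAA_GFP (0.76, adjusted p = 0.00843).

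Of 17 lipase and remodelling genes, 2 rose and 1 fell in TAA_GFP against PBS. In TAA_miR, 2 rose and 3 fell against PBS, and 2 fell against TAA_GFP. The shares called over all genes were 12.7%, 21.9% and 3.36% in these comparisons. Lpl, the lipase that Apoc2 activates, rose in TAA_GFP over PBS (1.43, edgeR adjusted p = 0.0042) and fell in TAA_miR against TAA_GFP (-0.97, adjusted p = 0.0301). The lipase inhibitor gene Angptl8 rose in both groups over PBS (1.24, adjusted p = 0.0273, and 1.76, adjusted p = 0.0115). Lcat, the enzyme that Apoa1 activates, rose in TAA_miR over PBS (0.61, adjusted p = 0.0299). Angptl6 fell in both groups against PBS (-0.81, adjusted p = 0.0102, and -0.61, adjusted p = 0.0398), and Pon1, a lactonase carried on high density lipoprotein, fell in TAA_miR against TAA_GFP (-0.72, adjusted p = 0.0129) and PBS (-0.47, adjusted p = 0.0321).

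Among 27 transcription factor genes of the apolipoprotein promoters, 6 rose and 1 fell in TAA_GFP against PBS. In TAA_miR against PBS, 4 rose and 1 fell. Between the TAA groups edgeR called 0, with 3 at an unadjusted p under 0.05, beside 1414 of 9252 genes. The shares called over all genes were 12.7%, 21.9% and 3.36% in these comparisons. Hnf4a, a hepatocyte nuclear receptor, rose in both TAA groups over PBS (0.86, edgeR adjusted p = 0.00538, and 1.21, adjusted p = 1e-04). So did Rora (1.28, adjusted p = 0.00688, and 1.24, adjusted p = 0.0047) and Nr0b2, a repressing partner of such receptors (1.86, adjusted p = 0.00465, and 1.77, adjusted p = 0.0395). Nr1h4, the bile acid receptor, fell in TAA_miR (-0.80, adjusted p = 0.00948). The named genes of these lists, with Efna1 and Sdc1 described last, gave 37 calls. None of them changed sign under the alternatives run, but 26 were lost with close libraries summed and 16 with the mitochondrial covariate. Leaving out each library in turn ended the call in 53 of 454 results. The replicate block ended 7 of 37, no filter on low counts 2 of 37, and the omission of TAA_miR 1 and 2 ended 2 of 25. With close libraries summed, the 26 had log2 fold changes of 0.801 to 1.21 times those above, with edgeR adjusted p from 0.0544 to 0.213. The 11 calls kept there included Cd36, Efna1, Lpl and Nr0b2 in TAA_GFP against PBS and Apool, Clu, Hnf4a, Lsr, Ndst1 and Tm6sf2 in TAA_miR against PBS, and none between the TAA groups. With the covariate, 9 of the 16 had log2 fold changes of 0.766 to 1.02 times those above, such as Angptl6 (-0.81, edgeR adjusted p = 0.205), Apool (-0.68, 0.261) and Lpl (1.10, 0.222) in TAA_GFP against PBS. The other 7 had 0.198 to 0.467 times those above, such as Hnf4a (0.37, edgeR adjusted p = 0.483), Rora (0.25, 0.704) and Ndst1 (0.35, 0.697) in the same comparison. Library size only ended 3 of the 37 calls, among them Lcat (0.47, adjusted p = 0.0815) and Nr0b2 (1.56, adjusted p = 0.0507) in TAA_miR against PBS.

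Markers of the cells around these genes were counted too. Hepatocyte markers had 1 of 16 higher in TAA_GFP against PBS, 4 higher and 3 lower in TAA_miR against PBS, and 0 called between the TAA groups by edgeR, with 4 at an unadjusted p under 0.05. Activated stellate cell markers had 5 of 13 higher in TAA_GFP against PBS, 3 of 11 lower in TAA_miR against TAA_GFP, and 0 of 9 called in TAA_miR against PBS by edgeR, with 1 at an unadjusted p under 0.05. Macrophage markers had 2 higher and 5 lower of 17 in TAA_GFP against PBS, 2 higher and 1 lower of 16 in TAA_miR against TAA_GFP, and 1 higher and 2 lower of 17 in TAA_miR against PBS. All 3 neutrophil markers tested were higher in TAA_miR than in either other group. Over all genes tested, 12.7% were called in TAA_GFP against PBS, 3.36% in TAA_miR against TAA_GFP and 21.9% in TAA_miR against PBS. At an unadjusted edgeR p under 0.05 were 1414 of 9252 genes in TAA_miR against TAA_GFP and 3427 of 9290 in TAA_miR against PBS. The part of the marked cells in the apolipoprotein levels was not tested.

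The genes whose profile over 19 libraries was most like that of Apoa4, by root mean square difference of centred log2 CPM among 2326 genes of at least 50 CPM, were Sdc1 (0.587) and Efna1 (0.588). Apoa4 itself had an SD of 0.87 over these libraries, so this likeness is loose. Both genes were chosen by likeness over the same libraries, so their differences from PBS are a description and not a separate result. Efna1 rose in TAA_GFP (log2 fold change 1.23, edgeR adjusted p = 0.00412) and in TAA_miR (0.81, adjusted p = 0.0272, and 0.52, adjusted p = 0.0505, without TAA_miR 1 and 2) against PBS. Sdc1, a syndecan that binds remnant particles, rose in TAA_miR (0.88, adjusted p = 0.0173) and had 0.57 (adjusted p = 0.0592) in TAA_GFP.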

How the data were processed

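Liver RNA of 19 mice was sequenced from the 3′ ends of polyadenylated transcripts. The authors deposited counts per gene, not normalized, in one table of 31053 Ensembl mouse IDs. The submitters' processing notes name STAR and mm10, and the gene annotation, the strand option and whether molecular identifiers were used are not given in the sources used here, so counts can include PCR duplicates. Totals of 2214073 to 5208405 counts per library set the precision. Gene positions are from GENCODE vM21 and sequences from RefSeq (GRCm38.p6).

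Symbols were matched by ID. Genes passed filterByExpr (at least 10 counts, total at least 15). Pairs of groups were fitted with TMM factors and the quasi-likelihood test of edgeR 4.0.16 (R 4.3.3), with Benjamini-Hochberg adjustment over all genes tested and a threshold of 0.05. Single members were also compared by exact two-sided permutation of log2 CPM (prior count 2), by absolute difference of means, with numpy 2.4.6, where the smallest p is 0.00126 for 7 against 5. Alternatives used DESeq2 1.42.0, limma 3.58.1, other scalings and filters, a replicate block, all 3 groups together, close libraries summed (limit 0.2) and each library left out. The mitochondrial covariate, the omission of TAA_miR 1 and 2 and the ratios to Apoa1, also with close libraries averaged, were added after seeing the data.

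The text names all 10 members, up to 3 called genes of each list of related genes with the smallest adjusted p per comparison (marker lists by their counts), and the 2 genes most like each called member. Fabp2, an intestinal marker, is named outside this rule and is not among the named calls checked under the alternatives. One gene that this rule names is not reported here. The members and lists were chosen with earlier results of these data known. Labels call the samples biological replicates. The edgeR and permutation scripts were tested on simulated data.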

Additional observations from a re-analysis of the deposited data

Results flagged for a closer look

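In the 30 combinations of member and group, each with 5 or 7 libraries, 1 library lay far from the others of its group. Apoa4 in PBS 2 was the lowest of 5 at a log2 CPM of 6.45, and its gap to the next library was 0.86 of the whole range, above the critical value of 0.71. Chance marks about 1 in 20 groups in this way. Without PBS 2, the log2 fold change of Apoa4 was 1.33 (edgeR adjusted p = 0.0478) in TAA_GFP against PBS and 0.67 (adjusted p = 0.0699) in TAA_miR against PBS.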

How the results depend on the processing

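Counts of called members in TAA_GFP against PBS were 1 in the edgeR fit of the report, 2 by DESeq2, 3 by limma-voom, and 0 with close libraries summed and with the mitochondrial covariate. In TAA_miR against PBS they were 1, then 2 with library size only, by DESeq2, with the covariate and without TAA_miR 1 and 2, 4 by limma-voom, 0 with all 3 groups in one fit and with close libraries summed, and 0 to 1 with each library left out. In TAA_miR against TAA_GFP they were 0, and 1 without TAA_miR 1 and 2.

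All genes called in TAA_GFP against PBS numbered 1212, then 2687 by limma-voom, 227 with close libraries summed, 133 with the covariate and 689 to 1859 with each library left out. In TAA_miR against TAA_GFP they were 311, then 624 with library size only, 542 by DESeq2, 813 by limma-voom, 87 with close libraries summed, 824 with the covariate and 720 without TAA_miR 1 and 2. In TAA_miR against PBS they were 2037, then 3839 by limma-voom, 331 with close libraries summed, 1171 with the covariate, 3878 without TAA_miR 1 and 2 and 1267 to 2695 with each library left out. Library size only moved the median log2 fold change of all genes to -0.20 in TAA_miR against TAA_GFP and -0.13 against PBS, and the share of calls that were higher from 57.9% to 19.1% and from 55.5% to 31.1%.

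The replicate numbers did not pair the samples (correlations of deviations -0.09 to 0.22, -0.28 to 0.21 and -0.23 to 0.28, with 2 of 5, 1 of 7 and 0 of 5 samples correlating best with their own number). With a replicate block, 4 members and 3088 genes were called in TAA_GFP against PBS, 142 genes in TAA_miR against TAA_GFP, and 0 members and 922 genes in TAA_miR against PBS, where Apoa4 had 0.95 (edgeR adjusted p = 0.0708), and Apoc1 became -0.20 in TAA_GFP against PBS.

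Sign changes concerned members that were not called in the report's fit. In TAA_GFP against PBS, the log2 fold changes were 0.0151 for Apoc2 and 0.0359 for Apoh with library size only, 0.0111 for Apoh with at least 10 counts in every library, -0.0963 for Apoc1 by limma-voom, 0.0842 for Apoc2 and 0.0092 for Apoh with close libraries summed, and -0.495 for Apob, 0.491 for Apoc2, 0.378 for Apoc3 and 0.0991 for Apoh with the covariate. In TAA_miR against TAA_GFP they were -0.118 for Apoa5, -0.0728 for Apoc3 and -0.0431 for Apoh with library size only, 0.000912 for Apoc1 and 0.0356 for Apoe by limma-voom, and -0.101 for Apoc3 and 0.096 for Apoe without TAA_miR 1 and 2. In TAA_miR against PBS they were -0.0292 for Apoa2, -0.15 for Apoc3 and -0.00709 for Apoh with library size only, 0.067 for Apob and -0.184 for Apoc3 by limma-voom, 0.0100 for Apoa1 with close libraries summed, 0.00515 for Apoa1, 0.109 for Apoc1 and 0.369 for Apoc2 with the covariate, and 0.0658 for Apob and -0.221 for Apoc3 without TAA_miR 1 and 2. Averaging close libraries also changed the sign of some differences in log2 CPM, relative to those over separate libraries. In TAA_GFP against PBS, Apob went from 0.147 to -0.0251, Apoc1 from -0.00794 to 0.0734 and Apoc2 from -0.0714 to 0.0652. In TAA_miR against PBS, Apoa1 went from -0.0198 to 0.0291 and Apoc3 from -0.00325 to 0.0726. With each library left out, TAA_GFP against PBS ran from -0.134 to 0.145 for Apoc1, -0.156 to 0.0522 for Apoc2 and -0.0677 to 0.0455 for Apoh. TAA_miR against TAA_GFP ran from -0.162 to 0.0819 for Apoc1 and -0.0881 to 0.0213 for Apoe, and TAA_miR against PBS from -0.209 to 0.039 for Apob, -0.0876 to 0.111 for Apoc3, -0.119 to 0.0714 for Apoa1 and -0.101 to 0.053 for Apoc1. With the covariate, Apob was called in TAA_miR against PBS (-0.72, edgeR adjusted p = 0.00269). The cause of these shifts was not tested. No permutation result passed adjustment over 30 tests at prior counts 0.5, 2 and 5. Depth limits Apoc2 most, at 14.6 to 51.9 CPM.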
